A study of Mus musculus with 24 samples.

Results

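The effect of a knockout was compared between 2 macrophage populations of the mouse, the Kupffer cells of the liver and the macrophages of the spleen. The quantity of interest was the difference of 2 genotype effects: KO over WT in Kupffer cells, minus KO over WT in splenic macrophages, on the log2 scale. It was tested for every gene in 1 model over 12 of the 24 bulk RNA sequencing libraries of the series, and 21082 genes had enough reads to be tested. A positive difference means that the KO over WT value was higher in Kupffer cells than in spleen. The 4 groups were Kupffer cells of Z165KO mice (KO), Kupffer cells of wildtype mice (WT), splenic macrophages of Z165KO mice and splenic macrophages of WT mice, with 3 libraries in each. All cells were sorted from digested tissue and carried no treatment in the labels. The labels describe neither the Z165KO allele nor the sort gate, age or strain. Nor is it said whether the 3 libraries of a group came from separate animals; the p-values below therefore refer to the spread among libraries, which may be technical. In such bulk samples fewer cells of a type and less RNA per cell cannot be told apart.

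Kupffer cells line the liver sinusoids, where they take up bacteria, complement-coated particles and old blood cells. Red pulp macrophages of the spleen clear aged erythrocytes and recycle their iron. The series title names the transcription factors cMaf and Zeb2. Zeb2 is a zinc-finger protein that binds E-boxes of the form CACCTG and acts in many blood lineages, and cMaf is a bZIP factor of macrophages.

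The sequences before the transcription start are shown for genes on which the comparison turned: Cav1 and Cd37, for which the genotype effect differed between the tissues, and Cd79a, which fell in both. Of 4 genes looked up, 3 had an entry in the RefSeq promoter table, and Arc is named only. The sequences are the 250 bases before each start on GRCm38.p6, printed 5′ to 3′ along the strand of the gene. Capitals mark CACCTG or its reverse complement CAGGTG, searched on both strands; the 2 forms share no bases in these windows. Cav1 has starts on the plus strand, with windows at chr6:17306085-17306334 and chr6:17307390-17307639. Cd37 lies on the minus strand (chr7:45238840-45239089) and Cd79a on the plus strand (chr7:24897247-24897496). The Cd37 window lies within the annotated span of the gene given below, so the RefSeq start used is downstream of the outermost annotated start.
Cav1, upstream start: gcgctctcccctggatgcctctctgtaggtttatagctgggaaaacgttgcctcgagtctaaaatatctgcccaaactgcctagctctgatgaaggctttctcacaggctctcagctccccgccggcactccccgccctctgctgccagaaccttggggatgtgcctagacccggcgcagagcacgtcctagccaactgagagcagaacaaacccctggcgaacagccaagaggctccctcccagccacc
Cav1, downstream start: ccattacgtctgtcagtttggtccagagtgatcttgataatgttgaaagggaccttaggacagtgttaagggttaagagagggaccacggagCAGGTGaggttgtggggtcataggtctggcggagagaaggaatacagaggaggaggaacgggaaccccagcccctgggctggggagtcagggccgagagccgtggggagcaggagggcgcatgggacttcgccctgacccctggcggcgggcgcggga
Cd37: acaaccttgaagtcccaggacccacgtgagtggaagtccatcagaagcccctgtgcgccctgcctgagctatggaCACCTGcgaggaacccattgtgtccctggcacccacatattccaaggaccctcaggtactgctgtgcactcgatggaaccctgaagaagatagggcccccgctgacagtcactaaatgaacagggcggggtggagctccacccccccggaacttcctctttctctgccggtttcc
Cd79a: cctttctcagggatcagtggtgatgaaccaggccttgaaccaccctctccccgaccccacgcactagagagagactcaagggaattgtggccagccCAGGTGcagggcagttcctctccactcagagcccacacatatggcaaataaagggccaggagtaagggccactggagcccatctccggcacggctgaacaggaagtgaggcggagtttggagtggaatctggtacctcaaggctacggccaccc
The upstream window of Cav1 held no match, and each of the other windows held 1. The match began 158 bases before the downstream start of Cav1, 175 bases before that of Cd37 and 154 bases before that of Cd79a. Among all 32851 windows of this length in the table, 5657 (17.22%) held a match, so a match is common and is given here as a description of these letters.

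The libraries held 51613880 to 65981787 counts each. The first principal component held 48.5% of the variance and the second 10.7%. Clec4f, a lectin by which Kupffer cells are recognised, read 8175 to 9809 CPM (counts scaled to the library total) in Kupffer KO and 8844 to 10253 CPM in Kupffer WT libraries, against at most 0.183 CPM in any splenic library. Spic, the factor on which red pulp macrophages depend, read 1422 to 1716 CPM in splenic KO and 1343 to 1639 CPM in splenic WT libraries, against 122 to 236 CPM in Kupffer cells of either genotype. The labelled tissues thus matched these markers in all 12 libraries.

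The factors named in the title were not called in any contrast by edgeR, nor did any of their list of 5 have an unadjusted p under 0.05 or a call by DESeq2. Zeb2 read 279, 237 and 282 CPM in Kupffer KO libraries against 277, 321 and 235 CPM in Kupffer WT libraries. In spleen it read 322, 319.9 and 318 CPM in KO libraries against 329.7, 296 and 305 CPM in WT libraries. The genotypes overlapped in both tissues. The difference of the effects was −0.13 (95% interval −0.55 to 0.29; adjusted p = 0.893 by edgeR's quasi-likelihood test with Benjamini-Hochberg adjustment, the test behind every adjusted p that follows). For Maf, which encodes cMaf, it was 0.05 (−0.44 to 0.53; adjusted p = 0.988). Zeb2os, the antisense transcript at Zeb2, gave 0.25 (adjusted p = 0.911), but it overlaps Zeb2 and the counting is not stated to use strand. Zeb1, the paralogue of Zeb2, gave −0.68 (adjusted p = 0.817). The targeted stretch of DNA is not given in the labels, so these levels do not check the genotype labels.

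By edgeR the genotype effect differed between the tissues for 3 genes: Cav1, Arc and Cd37. All 3 were changed in KO spleen, Cav1 and Arc upwards and Cd37 downwards, and none of them was called in Kupffer cells. They were 0.0142% of the genes tested at an adjusted p under 0.05, with Cd37 above 0 (0.00474%) and Cav1 and Arc below (0.00949%). At an unadjusted p under 0.05 there were 1837 genes (8.71%). The count depended on the tool, the filter and the model. DESeq2's Wald test called 298 genes, the 3 among them. With no filter on low counts edgeR called 12, and the fit of all 24 libraries called 5. A replicate block by number left 1 called gene, Cd37, and a block within genotype left 0. For each of the 3 the adjusted p was 0.00899, and each was called in all 12 fits that left out 1 library but not in all 20 alternatives, over which the highest adjusted p was 0.25 for Cav1, 0.528 for Arc and 0.0986 for Cd37. There were 5 called genes without Kupffer KO replicate 3, 8 without splenic WT replicate 2 and 11 without splenic WT replicate 3.

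Cav1 (ENSMUSG00000007655; chr6:17306335-17341452, plus strand) encodes caveolin-1, the main coat protein of caveolae. It read 15.4, 17.3 and 7.19 CPM in Kupffer KO libraries against 18.6, 16.7 and 20.3 CPM in Kupffer WT libraries, with overlap. The splenic values were 2.44, 1.32 and 1.31 CPM in KO libraries, against no read in any of the 3 WT libraries. The splenic KO mean was at least 94.0-fold higher than the 0.0180 CPM that 3 counts over the splenic WT group would give; this floor covers counting error only. The splenic rise was called (adjusted p = 0.00123). In Kupffer cells the log2 fold change was −0.49 ± 0.35 (SE; adjusted p = 0.869). All splenic KO libraries stayed below every Kupffer library of either genotype.

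Cav1 is also abundant in endothelium. The 21 endothelial markers tested summed to 8861, 10938 and 3759 CPM in Kupffer KO libraries against 12876, 10311 and 12961 CPM in Kupffer WT libraries, and Kupffer KO replicate 3 was lowest both in this sum and in Cav1. In spleen the sum was 1009, 974 and 941 CPM in KO libraries against 974, 1032 and 1056 CPM in WT libraries. Of these markers, 2 had no read in the splenic KO group and 3 none in the splenic WT group. The vascular growth factor receptor Kdr, a defining member, read 3.003, 1.90 and 0.838 CPM in splenic KO libraries against 0.197, 0.128 and 0.0178 CPM in splenic WT libraries. By edgeR Kdr was the only one of the 21 called, in spleen (adjusted p = 0.019; lost without splenic KO replicate 2 or splenic WT replicates 1 or 2, up to 0.0652), while DESeq2 called 6 in spleen and 3 for the difference. The difference was below 0 for 18 of the 21 (median −1.06, against −0.01 over all genes). Of the 21, 10 had an unadjusted p under 0.05 for it, as did 8.71% of all genes. The Kupffer fold change was below 0 for 21 of the 21 (median −0.65), and the splenic one for 7 (median 0.40). The part of endothelial transcripts in the Cav1 result was not tested.

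Arc (ENSMUSG00000022602; chr15:74669083-74672570, minus strand) is an immediate early gene best known from synapses, and its protein forms capsids that can carry RNA between cells. It read 29.9, 27.6 and 28.3 CPM in Kupffer KO libraries against 39.1, 24.96 and 47.4 CPM in Kupffer WT libraries. Splenic levels were 118, 128 and 128 CPM in KO libraries against 18.0, 25.3 and 21.8 CPM in WT libraries. The splenic genotypes stood clear of each other, while the Kupffer genotypes overlapped. The splenic KO mean was 5.75-fold the WT mean (log2 2.56 ± 0.23, SE; adjusted p = 0.000752), and the Kupffer log2 fold change was −0.36 ± 0.21 (adjusted p = 0.779). The difference of the effects was −2.92 (95% interval −3.60 to −2.25). It was not called with either replicate block. Nor was it called in the fit of all 24 libraries, where the adjusted p was 0.528 at a log2 difference of −2.91. Over the 20 alternatives the adjusted p ranged from 4.76e-15 to 0.528.

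Cd37 (ENSMUSG00000030798; chr7:45233632-45239115, minus strand) encodes a tetraspanin of B cells and other leukocytes. It read 142, 116 and 91.0 CPM in Kupffer KO libraries against 173, 165 and 155 CPM in Kupffer WT libraries. In spleen the levels were 11.45, 9.997 and 8.98 CPM in KO libraries against 120.4, 73.1 and 92.2 CPM in WT libraries. KO stood below WT without overlap in both tissues, and the gap was wider in spleen. The splenic KO mean was 9.39-fold lower (log2 −3.18 ± 0.20, SE; adjusted p = 7.23e-05), against a Kupffer log2 fold change of −0.49 ± 0.18 (adjusted p = 0.528). The difference was 2.69 (95% interval 2.10 to 3.27). The summed level of the 18 B cell markers tested was lower in KO in both tissues. It was 315 to 349 CPM in Kupffer KO libraries against 1064 to 1624 CPM in Kupffer WT libraries. The splenic sums were 330.2 to 417 CPM in KO libraries against 1818 to 2486 CPM in WT libraries. Over these markers the median log2 fold change was −6.43 in Kupffer cells and −5.57 in spleen. Their median difference was 0.31, and 0 had a called difference by edgeR. Their part in the Cd37 result was not tested.

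**Figure D1:**
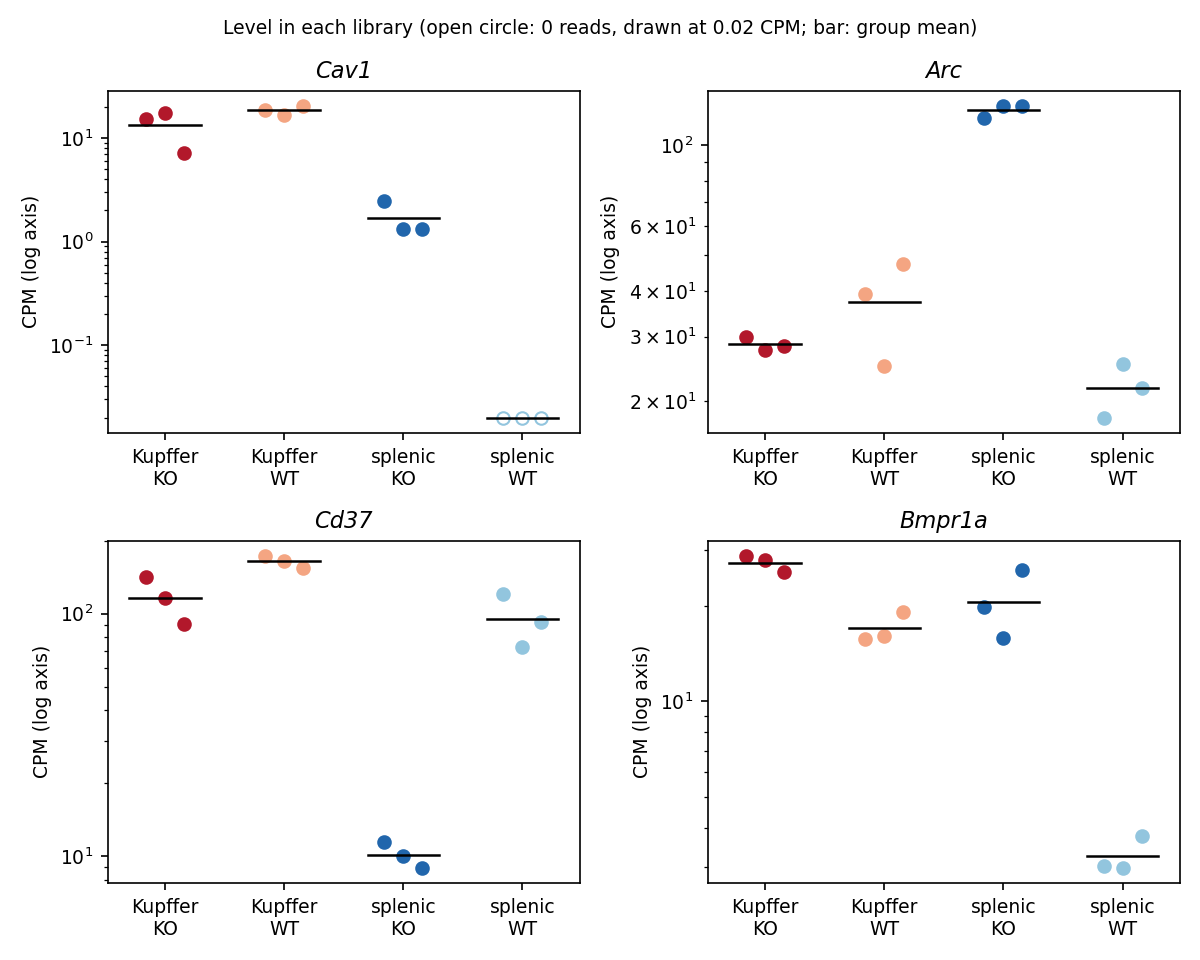
Level in CPM (log axis) of Cav1, Arc, Cd37 and Bmpr1a in each of the 12 libraries, by tissue and genotype, with the group mean as a bar and open circles for libraries with no read. For Cav1, Arc and Cd37 the splenic genotypes stood further apart than the Kupffer genotypes; Bmpr1a was higher in KO in both tissues.

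Beyond the called genes, the smallest adjusted p values of the difference were looked at one gene at a time. In all, 23 genes had an adjusted p under 0.25 for the difference; 18 of them were called in spleen and 0 in Kupffer cells by edgeR, where 9 had an unadjusted p under 0.05. Cd72, Lratd1, Serinc2, Itga8, Tnfrsf13b, Ralgps2 and Cldn5 are named after their values were seen.

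Bmpr1a, a type I receptor for bone morphogenetic proteins, came closest. It read 28.7, 27.8 and 25.7 CPM in Kupffer KO libraries against 15.7, 16.1 and 19.2 CPM in Kupffer WT libraries. In the spleen it stood at 19.9, 15.9 and 25.9 CPM in KO libraries against 3.03, 2.995 and 3.77 CPM in WT libraries. KO lay above WT without overlap in both tissues, as did 5.62% of all genes in Kupffer cells and 7.48% in spleen, with log2 fold changes of 0.70 ± 0.19 in Kupffer cells (adjusted p = 0.234) and 2.69 ± 0.20 in spleen (adjusted p = 0.000193). The difference of −1.99 (95% interval −2.57 to −1.40) had an adjusted p of 0.0694. It passed the threshold with a filter of 1 CPM in 3 libraries (0.0454), with no filter (0.031) and in the fit of 24 libraries (0.00952); over the 20 alternatives the adjusted p ranged from 2.35e-10 to 0.25. Of the 29 tested genes of TGF-beta and BMP signalling, Bmpr1a was the only one called in any of the 3 contrasts by edgeR (DESeq2 called 1 for the difference, 1 in Kupffer cells and 2 in spleen), and the median difference over them was 0.00 (all genes, −0.01).

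C3, the central component of complement, read 145, 146 and 111 CPM in Kupffer KO libraries against 111, 148 and 136 CPM in Kupffer WT libraries. In splenic KO libraries it read 49.6, 48.3 and 52.0 CPM, against 245, 167 and 132 CPM in splenic WT libraries. The genotypes overlapped in Kupffer cells and stood clear in spleen. C3 fell in spleen (log2 −1.81 ± 0.20; adjusted p = 0.00165), and the difference was 1.84 (1.24 to 2.43; adjusted p = 0.0964, from 1.92e-06 to 0.526 over the alternatives). Of 18 complement genes tested, edgeR called C3 and Vsig4, both in spleen and not in the other contrasts, and DESeq2 called 4 in spleen and 2 for the difference.

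Cd72, an inhibitory receptor of B cells that macrophages also carry, read 159, 168 and 165 CPM in Kupffer KO libraries against 192, 186 and 172 CPM in Kupffer WT libraries. In splenic KO libraries it read 6.77, 5.41 and 6.06 CPM, against 90.8, 39.7 and 30.9 CPM in splenic WT libraries. Like Cd37, it was lower in KO in both tissues without overlap, with the wider gap in spleen (difference 2.94, 2.01 to 3.86; adjusted p = 0.0964). Tnfrsf13b, which encodes the BAFF and APRIL receptor TACI, fell in spleen (log2 −3.37; adjusted p = 0.000752), had −1.18 in Kupffer cells (adjusted p = 0.134) and gave a difference of 2.19 (1.34 to 3.03; adjusted p = 0.198). Ralgps2, an exchange factor for Ral GTPases, fell in spleen too (log2 −3.41; adjusted p = 0.00231; difference 2.91, adjusted p = 0.201), against −0.50 in Kupffer cells (adjusted p = 0.86).

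Several genes with a negative difference were near or at 0 in WT spleen. Lratd1 read 38.0, 14.5 and 25.3 CPM in Kupffer KO libraries against 12.3, 17.4 and 14.8 CPM in Kupffer WT libraries, and 1.16, 0.794 and 1.90 CPM in splenic KO libraries against no read in splenic WT libraries. This was at least 71.3-fold higher in splenic KO, with an adjusted p of 0.0964 for the difference. Serinc2 likewise had no read in splenic WT libraries and 0.217, 0.678 and 0.886 CPM in splenic KO libraries (adjusted p = 0.1 for the difference). Itga8, the integrin α8 chain, read 1.32, 2.81 and 1.96 CPM in splenic KO libraries and at most 0.0731 CPM in splenic WT libraries, against 26.0 to 119 CPM in Kupffer cells (difference −5.95, −8.03 to −3.86; adjusted p = 0.143). The endothelial genes Kdr (−4.68, −6.49 to −2.88; adjusted p = 0.198) and Cldn5 (−4.83, −6.79 to −2.86; adjusted p = 0.228) had the same sign. Except for Serinc2, every Kupffer library stood above every splenic library in these genes.

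**Figure D2:**
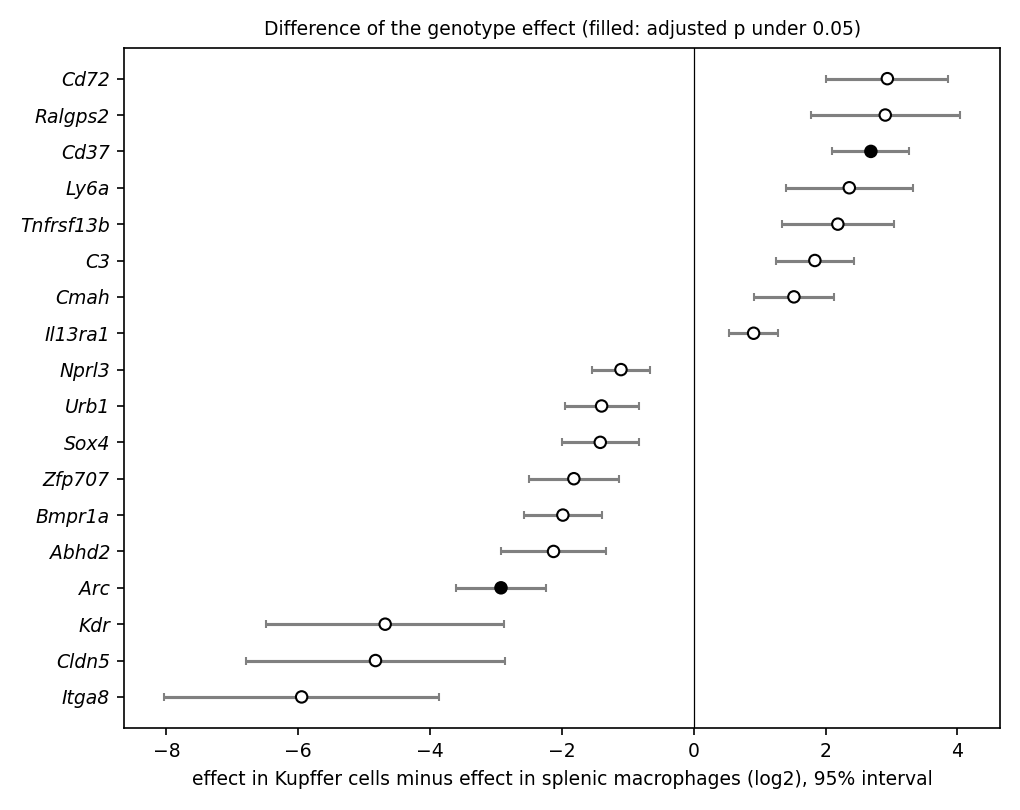
Difference of the genotype effect, Kupffer cells minus spleen (log2, with 95% intervals), for 18 genes with an adjusted p under 0.25 and reads in every group. Cd37 and Arc, filled, passed the 0.05 threshold; Itga8, Cldn5 and Kdr lay furthest below 0 and had the widest intervals.

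Each tissue's own genotype effect was read from the same model. In Kupffer cells 79 genes were called (0.375%), of which 3 rose (0.0142%) and 76 fell (0.36%). In spleen 183 were called (0.868%), of which 33 rose (0.157%) and 150 fell (0.712%). Across all genes tested the effects of the 2 tissues had a Pearson r of 0.295 and a Spearman rho of 0.0679, given as a description across genes. The genes fell into those called in both tissues (66), in Kupffer cells alone (13) and in spleen alone (117, among them Cav1, Arc and Cd37). A call in 1 tissue alone is no sign that the tissues differ; by edgeR the 3 genes above passed the test of the difference, and by DESeq2 298 did. These counts depend on the tool, the samples fitted and single libraries. DESeq2 called 433 genes in Kupffer cells, 1017 in spleen and 186 in both in the same direction, the fit of 24 libraries called 48, 145 and 38, and each tissue fitted alone gave 12, 133 and 9. With no filter on low counts they were 140, 313 and 117. The Kupffer count was 22 without Kupffer WT replicate 1, 29 without Kupffer WT replicate 2, 32 without Kupffer WT replicate 3, and 36, 40 and 44 without Kupffer KO replicates 1, 2 and 3. It was also 37, 29 and 31 without splenic WT replicates 1, 2 and 3. The splenic count was 110 without splenic KO replicate 2, 118 without splenic KO replicate 3, 114 without splenic WT replicate 1, and 121 and 116 without Kupffer WT replicates 1 and 2.

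**Figure D3:**
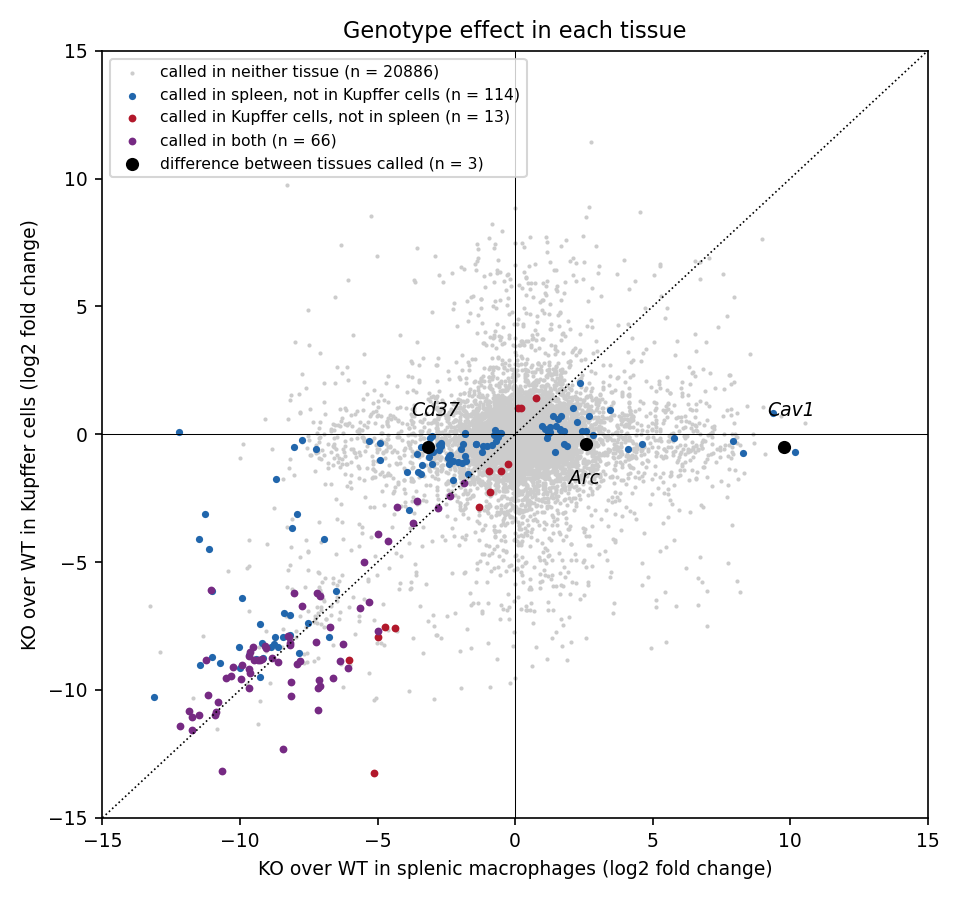
KO over WT fold change (log2) in splenic macrophages on the x axis and in Kupffer cells on the y axis, 1 point per gene tested, with the line of equal effects dotted. Genes called in both tissues lay at the lower left along the line, and those called in spleen alone without a called difference (114) lay mostly nearer the horizontal axis.

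Most genes called in both tissues belong to B cells or their immunoglobulins. All 66 genes called in both tissues (0.313% of those tested) were lower in KO, and 0 were opposite or higher by edgeR, against 11 higher in both by DESeq2 and 94 higher in both at an unadjusted p under 0.05. They were 83.5% of the Kupffer calls and 36.1% of the splenic calls. Of the 66, 45 were immunoglobulin genes and 21 others. In each of them no KO library reached the lowest WT library of its tissue, which held for 6.84% of all genes in Kupffer cells and 10.7% in spleen with KO below; the call itself makes this likely. None had a called difference between the tissues by edgeR (smallest adjusted p 0.406; 4 at an unadjusted p under 0.05, and 1 called by DESeq2). That does not show equal changes: the 95% interval of the difference lay within −1 to 1 for 1 of the 66, Cd79b, against 5944 of all genes (28.2%). The count of 66 was 20 to 36 without any 1 Kupffer library, and 33, 26 and 26 without splenic WT replicates 1, 2 and 3.

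Among the B cell receptor genes, Cd79a, a signalling chain of the receptor, read 0.394, 0 and 0.195 CPM in Kupffer KO libraries against 131, 101 and 84.1 CPM in Kupffer WT libraries. In spleen it read 1.16, 0.794 and 0.0158 CPM in KO libraries against 214, 139 and 142 CPM in WT libraries. The log2 fold changes were −8.995 ± 0.95 in Kupffer cells (adjusted p = 0.00257) and −7.94 ± 0.88 in spleen (adjusted p = 0.00185), with a difference of −1.06 (−3.57 to 1.46). Cd79b, Ighm and Siglecg are named after their values were seen. The partner of Cd79a, Cd79b, kept more of its level, at 15.3, 21.0 and 22.1 CPM in Kupffer KO libraries against 77.8, 85.4 and 57.3 CPM in Kupffer WT libraries. In spleen Cd79b read 31.9, 25.6 and 26.1 CPM in KO libraries against 109, 90.9 and 116 CPM in WT libraries. Its log2 fold changes were −1.90 ± 0.20 and −1.87 ± 0.19 in Kupffer cells and spleen, and the difference was −0.03 (−0.62 to 0.55).

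The heavy chain gene Ighd, which marks mature naive B cells, fell to 0.712, 1.47 and 0.454 CPM in Kupffer KO libraries, against 105, 88.4 and 85.5 CPM in Kupffer WT libraries. In spleen it fell to 0.850, 0.639 and 0.269 CPM in KO libraries, against 167, 102 and 119.6 CPM in WT libraries. It was 106-fold lower in Kupffer KO (adjusted p = 0.000288) and 221-fold lower in splenic KO (adjusted p = 7.23e-05), and the difference of the effects on the log2 scale was 1.01 (−0.21 to 2.23; adjusted p = 0.635). Ighm, the constant region of IgM, fell less far. It read 74.4, 97.9 and 26.8 CPM in Kupffer KO libraries against 509, 391 and 303 CPM in Kupffer WT libraries (adjusted p = 0.0498), a call kept in 2 of the 12 fits that left out 1 library (adjusted p up to 0.156). In spleen Ighm read 29.4, 32.4 and 87.1 CPM in KO libraries against 666, 529.9 and 616 CPM in WT libraries (adjusted p = 0.0072). Reads of the many similar immunoglobulin segments may have been divided among them by the counting, so single segments are uncertain.

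The transcription factors of B cell identity were close to 0 in KO libraries of both tissues. Pax5, which commits cells to the B lineage, had no read in any KO library and 5.11 to 7.90 CPM in Kupffer WT and 6.26 to 11.3 CPM in splenic WT libraries. It was thus at least 386-fold lower in Kupffer KO and at least 519-fold lower in splenic KO. Ebf1, which acts with it, had no read in Kupffer KO libraries (at least 1324-fold lower than the 31.9, 16.1 and 15.6 CPM of Kupffer WT) and 3 reads over the splenic KO libraries, against 42.6, 29.7 and 25.6 CPM in splenic WT libraries. With no or few reads in KO, the size of any difference between the tissues could not be detected at this depth for these genes. Pou2af1, a coactivator of octamer factors, fell by 4.99 and 5.51 on the log2 scale in Kupffer cells and spleen, with calls in 2 and 9 of the 12 fits that left out 1 library (Kupffer adjusted p up to 0.138).

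Surface receptors of B cells followed. Ms4a1, which encodes CD20, read 0.394, 0.0167 and 0.487 CPM in Kupffer KO libraries against 44.6, 33.4 and 25.1 CPM in Kupffer WT libraries, and 1.36, 2.81 and 0.585 CPM in splenic KO libraries against 112, 68.4 and 67.3 CPM in splenic WT libraries. The genotypes stood clear of each other in both tissues. Ms4a1 and Fcmr, the receptor for the Fc part of IgM, were called in both tissues in all 12 fits. Cr2, the complement receptor CD21 of marginal zone and follicular B cells, read 0.136, 0 and 0.0649 CPM in Kupffer KO libraries against 20.8, 14.99 and 9.65 CPM in Kupffer WT libraries. In spleen Cr2 read 2.79, 1.08 and 1.61 CPM in KO libraries against 74.1, 44.4 and 61.5 CPM in WT libraries. Splenic KO libraries thus kept more Cr2 than Kupffer KO libraries, and its log2 difference of −2.72 (−4.49 to −0.95) had an unadjusted p of 0.0061 and an adjusted p of 0.406. Siglecg, an inhibitory lectin of B cells, went the other way with 1.44 (0.11 to 2.77; adjusted p = 0.546), and its Kupffer call (0.0284) was lost in 6 of the 12 fits (up to 0.115).

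Of the 18 B cell markers tested, 13 fell in Kupffer cells and 16 in spleen, 0 rose in either tissue, and 0 had a called difference by edgeR (4 at an unadjusted p under 0.05; 2 called by DESeq2). Their median log2 fold change was −6.43 in Kupffer cells (all genes, −0.01) and −5.57 in spleen (all genes, 0.00), and the median difference was 0.31. The median covers genes with no read in a KO group, whose fitted values depend on the prior count. Among 11 plasma cell markers 1 fell in Kupffer cells, 0 in spleen (5 at an unadjusted p under 0.05; 3 by DESeq2) and 0 differed (0 and 0). In bulk libraries these levels are those of the sorted sample and not of a macrophage. Over all genes, 8.71% had an unadjusted p under 0.05 for the difference and 12% in spleen.

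**Figure D4:**
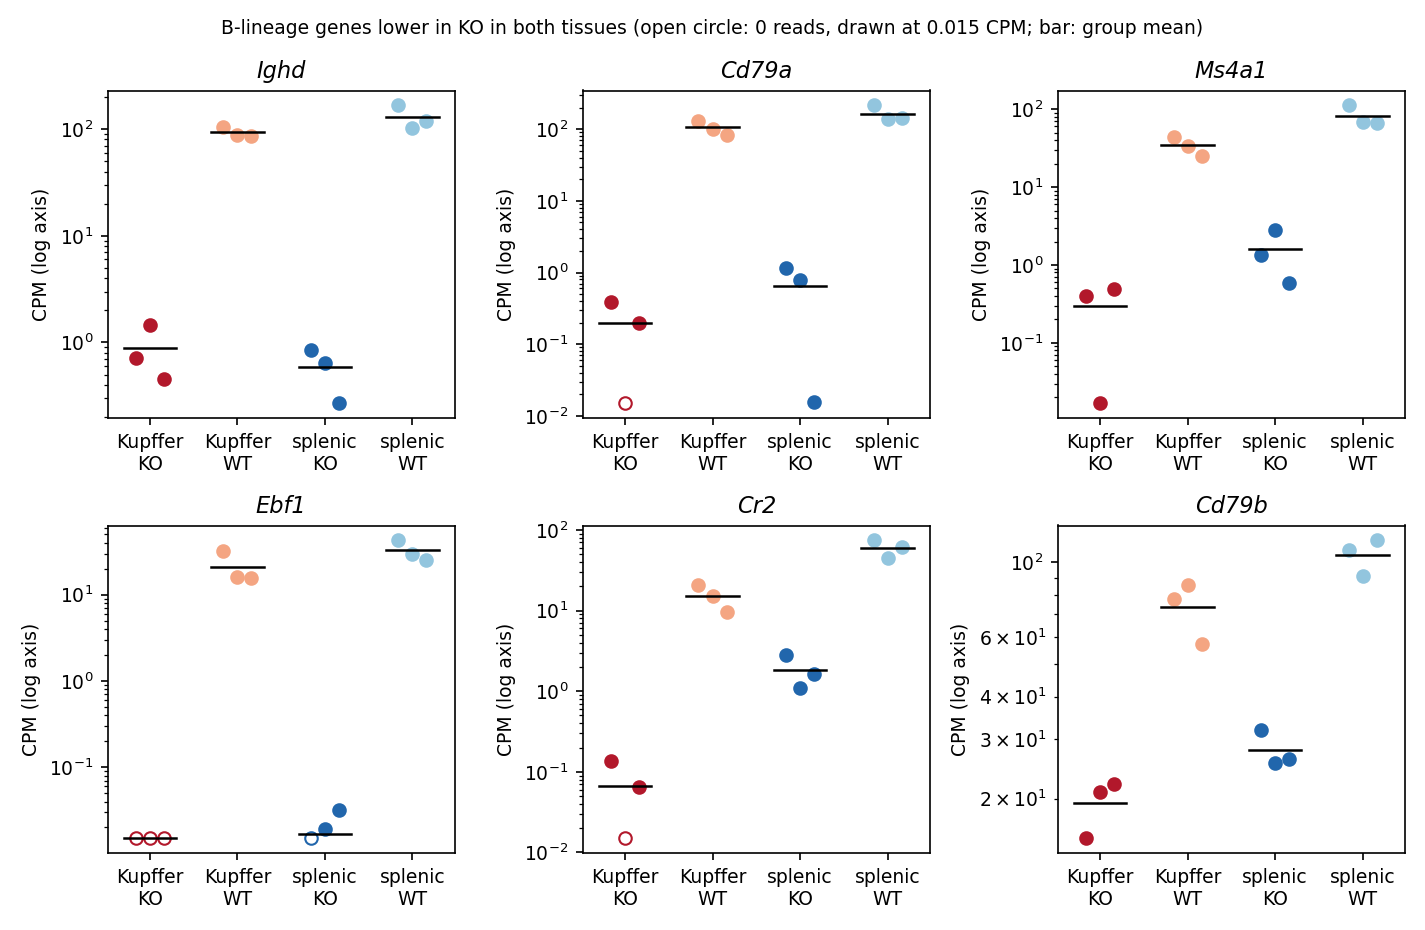
Level in CPM (log axis) of Ighd, Cd79a, Ms4a1, Ebf1, Cr2 and Cd79b in each library, with the group mean as a bar and open circles for libraries with no read. All KO libraries of either tissue lay below all WT libraries of that tissue, by far less for Cd79b than for the other 5 genes.

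No gene was called in opposite directions in the 2 tissues by edgeR, and none in any of the 12 fits that left out 1 library. At an unadjusted p under 0.05 there were 1646 genes (7.81%) in Kupffer cells and 2524 (12%) in spleen, and 89 of them passed in both with opposite signs, against 395 with the same sign. DESeq2's Wald test called 7 genes in opposite directions, which are named after their values were seen: Zfp707, Baz2a, Reg1, Nprl3, Thap8, Urb1 and Sox4. Under edgeR the adjusted p of their differences ran from 0.194 to 0.395. Zfp707, a zinc-finger gene, read 7.21, 8.21 and 5.70 CPM in Kupffer KO libraries against 17.2, 16.8 and 12.03 CPM in Kupffer WT libraries. The splenic values were 7.78, 7.56 and 5.80 CPM in KO libraries against 4.77, 4.09 and 4.60 CPM in WT libraries. The developmental transcription factor Sox4 read 13.8, 17.8 and 15.1 CPM in Kupffer KO libraries against 28.8, 21.4 and 28.2 CPM in Kupffer WT libraries, and 113, 95.4 and 78.9 CPM in splenic KO libraries against 51.5, 72.0 and 61.6 CPM in splenic WT libraries. In both genes KO stood below WT in Kupffer cells and above WT in spleen, with no overlap in either. The digestive secretory gene Reg1, by contrast, was at 0 in both Kupffer WT and splenic KO libraries and at most 2.83 CPM elsewhere.

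The 13 genes called in Kupffer cells alone had the same sign in spleen, and none had a called difference by edgeR (smallest adjusted p 0.334; 7 at an unadjusted p under 0.05, and 3 called by DESeq2). Without Kupffer KO replicate 2 there was 1 gene called in Kupffer cells alone that also had a called difference. Of them 3 rose, 10 fell and 4 were immunoglobulin genes; apart from Wdfy4 they are named after their values were seen. Wdfy4, needed by conventional dendritic cells for cross-presentation, rose to 409.6, 419 and 336 CPM in Kupffer KO libraries, against 214, 161 and 205 CPM in Kupffer WT libraries. In spleen Wdfy4 read 276, 349.9 and 362 CPM in KO libraries and 305, 328 and 317 CPM in WT libraries, with overlap. The Kupffer log2 fold change was 1.02 ± 0.14 (adjusted p = 0.0148) and the difference 0.92 (0.49 to 1.35; adjusted p = 0.334, from 0.00948 to 0.541 over the alternatives). The Kupffer call was lost without Kupffer KO replicate 1, Kupffer WT replicate 1 or Kupffer WT replicate 2 (up to 0.0599).

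Ppt1, a lysosomal thioesterase, read 516, 765 and 416 CPM in Kupffer KO libraries against 258, 252 and 311 CPM in Kupffer WT libraries, and 449, 499 and 459 CPM in splenic KO libraries against 377, 424 and 432 CPM in splenic WT libraries. KO lay above WT in both tissues, and the difference was 0.81 (0.27 to 1.35; adjusted p = 0.415). Naaa, a lysosomal amidase, rose too (log2 1.40 in Kupffer cells; 0.78 in spleen, adjusted p = 0.229). The Kupffer calls of Ppt1 and Naaa (adjusted p = 0.0345 and 0.0457) were each kept in 3 of the 12 fits (up to 0.156 and 0.191).

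Among the genes that fell, the kinase gene Sik1 read 41.1, 33.6 and 32.2 CPM in Kupffer KO libraries against 90.9, 68.8 and 81.9 CPM in Kupffer WT libraries, and 199, 244 and 218 CPM in splenic KO libraries against 225, 262 and 324 CPM in splenic WT libraries. Its Kupffer log2 fold change was −1.16 ± 0.18 (adjusted p = 0.0243; called in 7 of the 12 fits, up to 0.1) and the difference −0.91 (−1.45 to −0.36; adjusted p = 0.395). Plaur, the urokinase receptor, fell by 1.43 in Kupffer cells (adjusted p = 0.0178; 9 of 12 fits, up to 0.0661) and had a splenic log2 fold change of −0.93 (adjusted p = 0.0646), with KO below WT in every library of both tissues. Blnk, an adaptor of B cell receptor signalling, had log2 fold changes of −1.44 in Kupffer cells (adjusted p = 0.0305; 4 of 12 fits) and −0.51 in spleen (adjusted p = 0.405). The B cell transcription factor Spib had −7.91 (adjusted p = 0.0333; 4 of 12 fits) and −4.98 (adjusted p = 0.0668). The dendritic cell list that holds Wdfy4 summed to 1778 to 3055 CPM in Kupffer KO libraries against 1926 to 2384 CPM in Kupffer WT libraries, and its part in the result was not tested.

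Of the 117 genes called in spleen alone, 26 were immunoglobulin genes. In all, 114 had no called difference, and 96 of these had the same sign in Kupffer cells. The share of same signs over all genes was not counted, so the 96 are given as a description. The 83 that fell had a median log2 fold change of −1.16 in Kupffer cells and −3.86 in spleen. The 31 that rose had medians of 0.14 in Kupffer cells and 1.88 in spleen. The genes were chosen by the splenic call, so the larger splenic medians follow from the choice.

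Of the 33 genes that rose in spleen, 11 had a mean under 1 CPM in splenic WT and 5 had no read there. For 20 of the 33 the Kupffer WT mean was above the splenic KO mean, as it was for 64.9% of all genes tested. Vsig4, the complement receptor of Kupffer cells, read 1572, 1426 and 1899 CPM in Kupffer KO libraries against 1366, 1649 and 1286 CPM in Kupffer WT libraries. Splenic levels were 8.79, 9.69 and 10.6 CPM in KO libraries against 4.47, 3.12 and 2.15 CPM in WT libraries (log2 1.63 ± 0.23; adjusted p = 0.00802; difference −1.42, adjusted p = 0.361). The endocytic adaptor Dab2, named after its values were seen, read 535, 648 and 525 CPM in Kupffer KO libraries against 609, 488 and 494 CPM in Kupffer WT libraries, and 55.6, 57.0 and 37.6 CPM in splenic KO libraries against 2.91, 9.46 and 13.5 CPM in splenic WT libraries. Its splenic call (adjusted p = 0.0199) was lost without splenic KO replicates 1 or 2 or splenic WT replicate 2 (up to 0.0656), and the difference was −2.46 (−3.75 to −1.17; adjusted p = 0.361). Over the 20 alternatives the adjusted p of the difference ranged from 0.00475 to 0.797 for Vsig4 and from 0.00538 to 0.601 for Dab2. Clec4f stayed at or under 0.183 CPM in spleen. Of the 24 Kupffer identity genes tested 1 rose in spleen by edgeR, Vsig4 (4 were called by DESeq2). In Kupffer cells edgeR called 0 (2 at an unadjusted p under 0.05 and 0 by DESeq2). For the difference edgeR called 0, DESeq2 called 1, and 4 had an unadjusted p under 0.05 (8.71% of all genes).

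Xcr1, the chemokine receptor of cross-presenting dendritic cells, rose in spleen, and in Kupffer cells too KO lay above WT without overlap. It read 67.5, 97.9 and 37.5 CPM in Kupffer KO libraries against 13.5, 10.6 and 25.4 CPM in Kupffer WT libraries, and 15.2, 28.0 and 16.7 CPM in splenic KO libraries against 4.85, 3.10 and 4.34 CPM in splenic WT libraries. The log2 fold changes were 2.03 (adjusted p = 0.0705) and 2.34 (adjusted p = 0.0273), with a difference of −0.32 (−1.55 to 0.91; adjusted p = 0.92). The splenic call was kept in 8 of the 12 fits, and was lost without splenic KO replicate 2 or any splenic WT library (up to 0.0966). Cd8a, carried by these dendritic cells and by T cells, rose in spleen with a log2 fold change of 2.11 (adjusted p = 0.0237; 9 of 12 fits, lost without splenic KO replicate 2 or splenic WT replicates 1 or 2, up to 0.0804) and had 1.04 in Kupffer cells (adjusted p = 0.453). Of the 18 dendritic cell markers, 1 rose in Kupffer cells (Wdfy4) and 1 in spleen (Xcr1) by edgeR, and DESeq2 called 5 in each tissue. Of 20 T and NK cell markers edgeR called Cd8a alone and DESeq2 called 2, in spleen.

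Among genes that fell in spleen, Scd1, the stearoyl-CoA desaturase induced by LXR, read 32.2, 64.3 and 88.0 CPM in Kupffer KO libraries against 91.9, 87.2 and 69.7 CPM in Kupffer WT libraries. In spleen the levels were 6.46, 12.1 and 13.2 CPM in KO libraries against 92.2, 64.5 and 67.2 CPM in WT libraries (log2 −2.77 ± 0.37; adjusted p = 0.00714). The genotypes overlapped in Kupffer cells, and the difference was 2.36 (1.26 to 3.46; adjusted p = 0.334). Over the 20 alternatives the adjusted p of this difference ranged from 0.00188 to 0.575. Scd1 was the only one of 17 LXR targets called in either tissue by edgeR. DESeq2 called 1 of them in spleen and 1 for the difference. H2-DMb2, a chain of the peptide-loading complex of MHC class II, read 43.9, 46.1 and 31.4 CPM in Kupffer KO libraries against 113, 76.6 and 75.2 CPM in Kupffer WT libraries, and 34.0, 27.9 and 32.4 CPM in splenic KO libraries against 173, 97.4 and 106 CPM in splenic WT libraries. Its log2 fold changes were −1.12 (adjusted p = 0.0651) and −1.94 (adjusted p = 0.00228), and it was the only one of 13 genes of its list called by edgeR. DESeq2 called 3 of them in Kupffer cells and 2 in spleen, and 6 and 4 had an unadjusted p under 0.05 (7.81% and 12% of all genes). The list did not fall with H2-DMb2 in Kupffer cells. It summed to 21376 to 24645 CPM in Kupffer KO libraries against 15070 to 18640 CPM in Kupffer WT libraries. The median log2 fold change of the list was 0.28 in Kupffer cells and −0.20 in spleen, with 5 and 8 of the 13 below 0. The median difference was 0.48, with 1 of the 13 below 0.

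Cd209b, a lectin of marginal zone macrophages, had no read in splenic KO libraries against 0.646, 1.13 and 0.640 CPM in splenic WT libraries, at least 45.7-fold lower (adjusted p = 0.00736). Kupffer levels were 1.45, 2.26 and 0.422 CPM in KO libraries against 4.75, 5.76 and 3.03 CPM in WT libraries. KO was lower without overlap in both tissues, and the difference had an adjusted p of 0.296. It was the only one of 16 alternative activation genes called by edgeR, against 2 for the difference, 2 in Kupffer cells and 4 in spleen by DESeq2. Most of this list went the other way from Cd209b in spleen, where 3 of the 16 were below 0 (median log2 fold change 0.50). In Kupffer cells 8 were below 0 (median −0.04), and for the difference 13 were (median −0.67). Ms4a4c, a membrane protein of monocytes, fell by 2.36 in spleen (adjusted p = 0.00273) and had −0.81 in Kupffer cells (adjusted p = 0.432). Alb, the hepatocyte gene for albumin, read 0, 0 and 0.158 CPM in splenic KO libraries against 3.27, 1.17 and 1.21 CPM in splenic WT libraries, a call lost without splenic KO replicates 1 or 2 (up to 0.0643). In Kupffer cells Alb read 68.0, 88.2 and 102 CPM in KO libraries against 80.2, 84.4 and 165 CPM in WT libraries. Ms4a4c and Alb were the only members called by edgeR in the lists of 18 monocyte and 18 hepatocyte markers. DESeq2 called 2 monocyte markers for the difference, 3 in Kupffer cells and 5 in spleen, and 1, 0 and 3 hepatocyte markers. The monocyte list did not fall with Ms4a4c in spleen, where 9 of the 18 were below 0 (median −0.05). Its splenic sums were 6539 to 8155 CPM in KO libraries against 5983 to 6229 CPM in WT libraries. Of the 18 hepatocyte markers, 11 were below 0 in spleen (median −0.28).

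Immediate early genes respond within minutes to stimuli, tissue digestion among them. Of the 27 tested, 26 had a negative difference, with a median of −1.04 (all genes, −0.01), and their median log2 fold change was −0.45 in Kupffer cells and 0.45 in spleen. Arc was the only one called in any of the 3 contrasts by edgeR, against 4 for the difference, 2 in Kupffer cells and 3 in spleen by DESeq2. The list summed to 16673, 12594 and 15275 CPM in Kupffer KO libraries against 18357, 14899.6 and 28558 CPM in Kupffer WT libraries. In spleen the sums were 69018, 59701 and 50811 CPM in KO libraries against 38465, 37017 and 46630.3 CPM in WT libraries. The splenic KO sums lay above all splenic WT sums, while the Kupffer genotypes overlapped. Taken one by one, 27 of the 27 genes had a fold change below 0 in Kupffer cells and 4 in spleen. At an unadjusted p under 0.05 there were 11 for the difference, 8 in Kupffer cells and 8 in spleen. The shares of all genes were 8.71%, 7.81% and 12%.

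Egr1, a zinc-finger factor of this class, read 871, 867 and 522 CPM in Kupffer KO libraries against 949.6, 798 and 1758 CPM in Kupffer WT libraries, and 4346, 4386 and 3327 CPM in splenic KO libraries against 1544, 1351 and 2363 CPM in splenic WT libraries. Its difference was −1.88 (−2.86 to −0.89; adjusted p = 0.373). The orphan nuclear receptor Nr4a1 read 354, 264 and 394 CPM in Kupffer KO libraries against 863, 470.4 and 1334 CPM in Kupffer WT libraries, and 7342, 6639.7 and 5659 CPM in splenic KO libraries against 4978, 5191 and 5005 CPM in splenic WT libraries. Its difference was −1.79 (−2.75 to −0.83; adjusted p = 0.383), with KO below WT in Kupffer cells and above WT in spleen and no overlap in either. The part of tissue digestion or sorting in the Arc result was not tested.

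Among 28 cell cycle genes tested, 1 had a negative fold change in Kupffer cells and 0 in spleen. Their median log2 fold change was 0.40 in Kupffer cells and 1.18 in spleen, and the median difference was −0.63. Rrm2, a subunit of ribonucleotide reductase, read 30.4, 41.2 and 30.3 CPM in Kupffer KO libraries against 22.4, 28.2 and 16.2 CPM in Kupffer WT libraries, and 117, 219.8 and 274 CPM in splenic KO libraries against 75.6, 52.7 and 84.7 CPM in splenic WT libraries. Rrm2 (adjusted p = 0.0421) and the mitotic kinase gene Cdk1 (adjusted p = 0.0465) were the only members called by edgeR, both in spleen and in 2 and 1 of the 12 fits that left out 1 library (up to 0.14 and 0.154). In spleen 24 of the 28 had an unadjusted p under 0.05 (12% of all genes) and DESeq2 called 17. In Kupffer cells these counts were 4 (7.81% of all genes) and 2, and for the difference 4 (8.71% of all genes) and 0. Their differences had adjusted p of 0.563 and 0.494.

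The marker sum of neutrophils moved with genotype in spleen. The 14 neutrophil markers summed to 673, 804 and 912 CPM in splenic KO libraries against 242, 182 and 258 CPM in splenic WT libraries. In Kupffer cells they summed to 141, 229 and 157 CPM in KO libraries against 150.3, 159 and 127 CPM in WT libraries. All splenic KO sums were above the splenic WT sums, and the Kupffer genotypes overlapped. Taken one by one, these markers had a median log2 fold change of 2.45 in spleen and 1.07 in Kupffer cells. Of the 14, 0 were below 0 in spleen and 2 in Kupffer cells. The 14 erythroid markers summed to 17151 to 28551 CPM in splenic KO libraries and 5903 to 22759 CPM in splenic WT libraries, with overlap, and to at most 233 CPM in any Kupffer library. No member of either list was called in any of the 3 contrasts by edgeR. At an unadjusted p under 0.05 in spleen there were 8 neutrophil and 7 erythroid markers (12% of all genes), and DESeq2 called 3 and 2. For neutrophil markers these counts were 3 and 2 in Kupffer cells (7.81% of all genes at the unadjusted p). For the difference they were 3 and 1 (8.71% of all genes). For erythroid markers they were 0 in both. Their part in the splenic results was not tested.

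No member was called by edgeR in the difference, the Kupffer effect or the splenic effect in 15 other lists. These were splenic macrophage identity (20 tested), heme and iron handling (22), cholesterol synthesis (19), efferocytosis and scavenger receptors (21), interferon-stimulated genes (32), cytokines and chemokines (28), lysosome (28), oxidative phosphorylation (23) and glycolysis (20). The others were heat shock genes (14), glucocorticoid-responsive genes (14) and markers of eosinophils, basophils and mast cells (12), platelets (12), stromal cells (14) and epithelium (10). At an unadjusted p under 0.05 each of them had 0 to 7 members for the difference, 0 to 8 for Kupffer cells and 0 to 9 for spleen. The shares of all genes were 8.71%, 7.81% and 12%. DESeq2 called 0 to 2, 0 to 1 and 0 to 4 of their members in these contrasts. The highest unadjusted counts, 7, 8 and 9, were all those of the 32 interferon-stimulated genes. Of these, 26 were below 0 in Kupffer cells (median −0.31) and 21 in spleen (median −0.15). They summed to 6187 to 6533 CPM in Kupffer KO libraries against 6989 to 7817 CPM in Kupffer WT libraries. In spleen 14 of the 14 heat shock genes (median −0.23) and 22 of the 23 oxidative phosphorylation genes (median −0.17) were below 0.

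**Figure D5:**
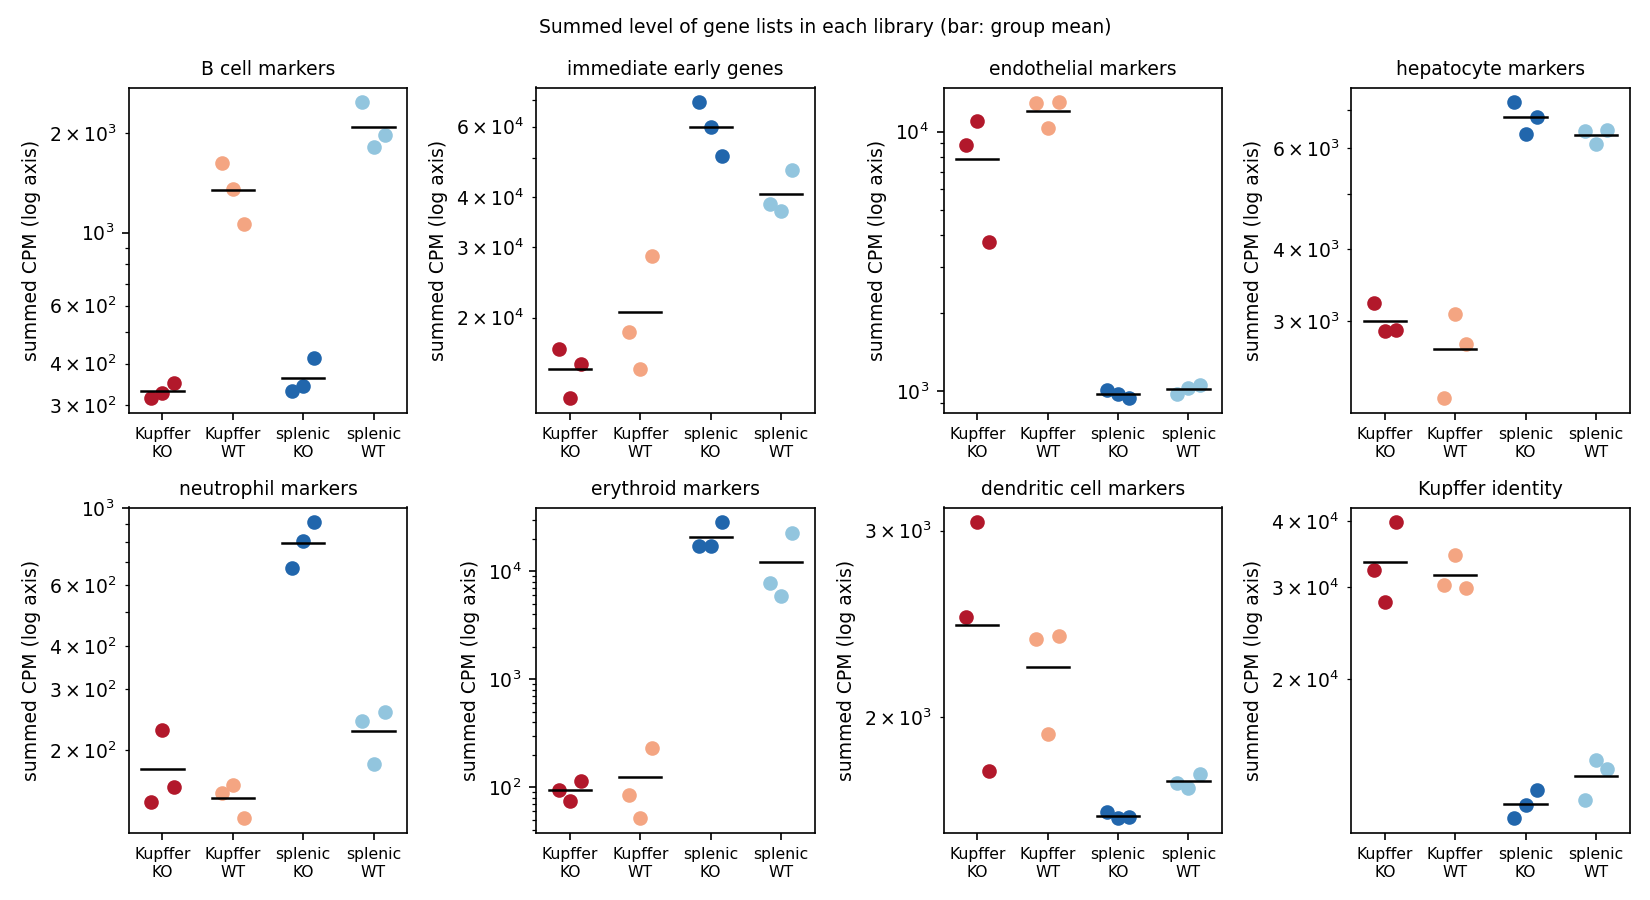
Summed level in CPM (log axis) of 8 gene lists in each library, by tissue and genotype, with the group mean as a bar. B cell markers were lower in KO in both tissues, immediate early and neutrophil sums were higher in KO in spleen, and Kupffer KO replicate 3 was lowest among Kupffer libraries in the endothelial sum.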

How the data were processed

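Macrophages were sorted and RNA libraries made with a SMARTer Ultra Low kit, per the labels' protocols. The authors deposited whole-number gene counts for each library, not normalized; all tests used these. Deposited CPM and TPM were not used, and CPM in the text was recomputed from the counts. The submitters' processing notes name the mm10 build with DRAGEN, STAR, Subread, featureCounts and Salmon but give no roles, and the handling of multi-mapping, overlapping and stranded reads is not stated. The table held 55774 rows; 287 repeats were dropped, leaving 55487 genes, of which 55227 had coordinates in the GENCODE annotation of mm10. No value column was left unmapped.

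The 4 groups came from cell type and genotype in the labels and the replicate number from the title. They were fitted in 1 edgeR 4.0.16 model (R 4.3.3) with TMM scaling and filterByExpr (minimum count 10). Two-sided quasi-likelihood tests gave the 3 contrasts, with Benjamini-Hochberg adjustment over 21082 genes and calls at 0.05. With 3 libraries against 3 an exact permutation test cannot go below 0.1 and was not used. No replicate pair agreed within sampling noise. Folds against a group with no reads use 3 counts over the group as a floor; floors cover counting error only.

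The comparison, its genes and the 33 gene lists were chosen with earlier results of these data known. Genes were named by these rules, each with at least 5 CPM where applicable: genes with a called difference, the 8 with the largest shared change in each direction, and up to 4 members of each list with the smallest p, besides the factors of the title with their relatives and the defining markers of cells for their levels; others are said to be named after their values were seen. A few listed genes are not reported here. Alternatives were DESeq2 size factors, no and stricter filters, DESeq2 1.42.0, the 24 libraries, replicate blocks, each tissue alone, immunoglobulin genes left out of library sizes, and leaving out each library. The calling step was run on simulated counts with less spread than these data and, apart from planted changes, the same mean in all groups. That run does not give the error rates of the fit used here.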

Additional observations from a re-analysis of the deposited data

Results flagged for a closer look

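The genotype effect differed between the 2 tissues, by the test of the difference itself, for 3 genes by edgeR. For Cav1 the fitted difference, Kupffer cells minus spleen, was −10.27 on the log2 scale (adjusted p = 0.00899 by edgeR); it depends on the prior count, since splenic WT libraries had no read of Cav1. For Arc the difference was −2.92 and for Cd37 2.69, each with an adjusted p of 0.00899. In all 3 genes the splenic genotypes did not overlap, and the Kupffer genotypes overlapped for Cav1 and Arc but not for Cd37. The 3 were chosen as the genes past the threshold among 21082.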

How the results depend on the processing

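The differences of Cav1, Arc and Cd37 kept their sign in all 20 alternatives, and all 3 were called with DESeq2 size factors, with no filter, with a stricter filter, with DESeq2, with immunoglobulin genes left out of library sizes and in each fit that left out 1 library. With no filter on low counts there were 12 genes with a called difference, 140 called in Kupffer cells, 313 in spleen, 117 in both and 12 in spleen alone with a called difference. DESeq2's Wald test called 298, 433, 1017, 186 and 180 of these, 7 in opposite directions and 53 in Kupffer cells alone with a called difference. The fit of all 24 libraries called 5 differences, 48 in Kupffer cells, 38 in both tissues and 5 in spleen alone with a called difference, and each tissue fitted alone gave 12 in Kupffer cells and 9 in both. Leaving out 1 library gave 3 to 11 called differences (8 without splenic WT replicate 2, 11 without splenic WT replicate 3, 5 without Kupffer KO replicate 3), 22 to 99 calls in Kupffer cells, 110 to 232 in spleen, 20 to 60 in both, 0 to 0 opposite, 0 to 1 in Kupffer cells alone (1 without Kupffer KO replicate 2) and 3 to 11 in spleen alone with a called difference.

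Same-numbered libraries did not deviate together. Over 18 pairs the correlation of their deviations ran from −0.0438 to 0.0396, under the 0.1 required. Most of these pairs joined KO with WT libraries, which cannot share an animal. Between same-numbered Kupffer and splenic libraries of 1 genotype, the correlations were 0.0338, −0.000454 and 0.0128 for KO. For WT they were 0.0193, −0.0159 and 0.0396. The values gave no sign of pairing, but with 3 libraries a group they cannot exclude it, and the labels do not say. A replicate block by number left 1 called difference (Cd37), 23 calls in Kupffer cells, 103 in spleen, 22 in both and 1 in spleen alone with a called difference. A block within genotype left 0 called differences by edgeR, with 1555 genes at an unadjusted p under 0.05, against 3 by edgeR and 298 by DESeq2 without a block. The adjusted p of Cav1 and Arc was 0.0649 with the block by number and 0.25 with the block within genotype, and that of Cd37 was 0.00976 and 0.0986.

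The differences that changed sign in any alternative were uncalled in every fit run. With 1 library left out they ranged from −0.18 to 0.11 for Cd79b, −0.63 to 0.97 for Fcer2a, −0.29 to 2.59 for Iglc3, −1.65 to 1.03 for Pou2af1 (−0.094 with the block within genotype), −0.026 to 0.51 for Tpx2, −0.62 to 0.14 for Xcr1, −0.046 to 0.49 for Zeb2os, −0.10 to 0.17 for Maf and −0.23 to 4.3e-05 for Zeb2. For single genes and alternatives, 185 calls were lost and 44 gained. Few reads in KO libraries limit what could be seen for B-lineage genes, and 3 libraries a group limit the rest.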
